A study of Mus musculus with 16 samples.

Results

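RNA levels were compared between hair follicle stem cells (HFSCs) and progenitors sorted from the same untreated organoids. The comparison covers 12226 of the 22579 genes in the count table, those with a mean of at least 10 RNA-seq counts over the 4 untreated libraries on 1 transcript per gene. Epidermal cells of C57BL/6J mice of both sexes in telogen, the resting phase of the hair cycle, were grown for 2 weeks as 3D-3C organoids, a gel culture in which both cell types form and coexist. They were then sorted by flow cytometry into α6+CD34- progenitors and α6+CD34+ HFSCs. Both sorted populations are mixtures defined by 2 surface proteins, and their RNA was measured in bulk. Each cell type gave 1 ribo-depleted RNA-seq library from each of 2 donor mice, so n = 2 per group. Replicate 1 and replicate 2 name the donor. Companion libraries of the same 2 donors, from organoids given N1-acetylspermidine (N1-AcSpd, an acetylated polyamine) for 72 h, entered the fit to estimate the spread between libraries. The sort selected on CD34 and integrin α6 protein, so Cd34 RNA is a check of the labels and not a result.

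HFSCs reside in the bulge, the lower permanent part of the hair follicle, where they rest between cycles of hair growth and then rebuild the follicle. Their progeny, like the basal cells of the epidermis, attach to the basement membrane through integrin α6β4 until they leave it and switch from the basal keratins Krt5 and Krt14 to the suprabasal keratins Krt1 and Krt10. Wnt, BMP, TGF-β and Hedgehog signals, with factors such as NFATC1, SOX9, LHX2 and the TCF and LEF proteins, set whether a bulge cell rests, divides or differentiates.

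The untreated RNA-seq libraries held 23642351 to 30898077 counts on the genes tested. The mouse identity given in the labels is the same for all libraries of a replicate number, and the difference between mouse 1 and mouse 2 correlated across the 12226 genes at r = 0.34 to 0.59 among 3 of the RNA-seq groups. It ran the opposite way in the N1-AcSpd HFSCs, with r from -0.55 to -0.39 against the other 3 groups, so these 2 libraries go against their replicate numbers. Neither is an untreated library. All counts are therefore given for the fit on 8 libraries without a donor term and for a fit on 6 libraries, without the N1-AcSpd HFSCs, in which the donor is a block (called the blocked fit here). The 6 libraries were thus chosen from the donor differences in these data, and they leave out those that go against the block. Levels are in CPM (counts scaled to a common library size), log2 fold changes are HFSC over progenitor with their standard error (SE), and a gene passed at an adjusted p-value under 0.05 in edgeR's quasi-likelihood test.

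Of the 12226 genes, 21 passed (0.172%), 16 higher in HFSCs (0.131%) and 5 lower (0.0409%). Among the 16 are Cd34, whose direction the sort fixed, and Serpina3k, which entered the comparison through its HFSC level. In the blocked fit 805 passed (6.58%), 525 higher (4.29%) and 280 lower (2.29%), and these included all 21. The same block on all 8 libraries, with the replicate numbers as labelled, left 3 genes (0.0245%), all 3 among the 21. The 4 untreated libraries alone gave 10 genes without the block, 7 of them among the 21, and 2732 with it (22.3%). That blocked fit on 4 libraries has almost no libraries to spare for the spread, so its count is not comparable with the others. Without the N1-AcSpd HFSCs and without the block, 19 passed, 16 of them among the 21. Leaving out 1 untreated library, or both untreated libraries of either mouse, leaves 1 library in a group, so only the direction is given. All 21 genes kept theirs in each of these fits, which reuse the libraries that selected them and so are no separate support. The 2 mice gave like ratios: the log2 ratio of HFSC to progenitor in mouse 1 correlated with that in mouse 2 at r = 0.68 across the genes, which are not independent replicates. Most genes differed little, with a median absolute log2 fold change of 0.14 and a median of -0.01. In both mice 193 genes (1.58%) were at least 2-fold higher and 116 (0.949%) at least 2-fold lower in HFSCs. The highest RNA levels belonged to the same 5 genes in each cell type, mt-Co1, Krt5, Krt14, Eef1a1 and mt-Cytb, and none of these 5 passed in either fit.

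**Figure D1:**
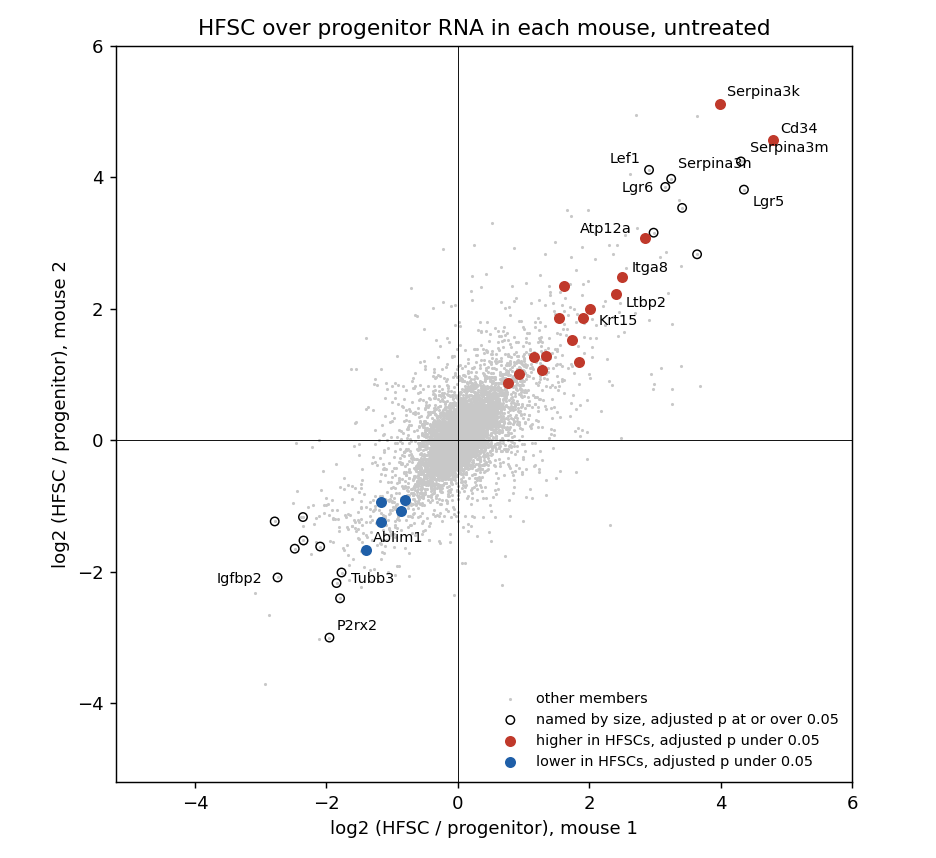
Log2 ratio of HFSC to progenitor CPM in mouse 1 (horizontal axis) against mouse 2 (vertical axis) for the 12226 genes (grey), with the 16 genes that passed higher in red, the 5 that passed lower in blue and the genes named by size in open circles. The same sign in both mice was a condition for colouring, which all 21 genes that passed met.

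Known markers of the bulge were among the genes that passed. Cd34 RNA stood at 2.35 and 3.57 CPM in the progenitors of mouse 1 and mouse 2 and at 67.4 and 86.8 CPM in the HFSCs. Krt15, a keratin of bulge cells, stood at 169 and 190 CPM in progenitors and at 683 and 764 CPM in HFSCs (log2 fold change 2.01 ± 0.12 SE, adjusted p = 0.000816). Its ratio was the same in both mice, a log2 of 2.01. Ltbp2, which encodes a latent TGF-β binding protein of the matrix, rose from 2.27 and 2.54 CPM to 12.4 and 12.2 CPM (2.32 ± 0.19, adjusted p = 0.00461). Nfatc1, the factor that holds bulge cells in quiescence, rose from 46.6 and 45.1 CPM to 88.5 and 91.3 CPM (0.97 ± 0.11, adjusted p = 0.025). In each of these the progenitor and HFSC libraries did not overlap, which also held with HFSCs higher for 19.6% of all genes. Itga6, the integrin used in the sort and positive in both gates, stood at 980 and 946 CPM in progenitors and at 802 and 689 CPM in HFSCs, and passed in the blocked fit only (-0.37 ± 0.11, adjusted p = 0.274, blocked adjusted p = 0.019).

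Of 23 bulge markers listed, 22 were measured, with a median log2 fold change of 1.17 against -0.01 over all genes. Cd34, Krt15, Ltbp2 and Nfatc1 passed higher, and 21 of 22 passed higher in the blocked fit, against 4.29% of all genes. Cd34 is part of the median and of these counts, although the sort fixed its direction. In 19 of 22 both HFSC libraries lay above both progenitor libraries, against 19.6% of all genes. Cd200, Lhx2 and Grem1 are given to show the range and were chosen after their values were seen. Cd200, a surface glycoprotein that dampens immune cells, stood at 5.86 and 14.2 CPM in progenitors and 20.5 and 49.6 CPM in HFSCs (1.80 ± 0.64, adjusted p = 0.386, blocked adjusted p = 5.62e-05). Lhx2, a LIM homeodomain factor of hair follicle stem cells, stood at 3.84 and 6.76 CPM and at 9.18 and 21.9 CPM (1.54 ± 0.43, blocked adjusted p = 0.00332). For both genes the HFSC library of mouse 1 lay above both progenitor libraries by less than that of mouse 2 did. Grem1, a BMP antagonist, was the only member below 0 (-0.73 ± 1.34) and passed neither fit.

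Beyond the marker genes, 12 genes passed higher in HFSCs, and they fall into several roles. Among membrane and transport proteins, Atp12a, the catalytic subunit of a non-gastric proton and potassium pump, rose from 1.94 and 2.41 CPM to 14.4 and 20.9 CPM (2.98 ± 0.32, adjusted p = 0.0228). Atp6v0a4, a subunit of the vacuolar proton pump, rose from 2.23 and 2.24 CPM to 6.63 and 8.37 CPM (1.71 ± 0.24, adjusted p = 0.0435). Itga8, the α subunit of a receptor for nephronectin and other RGD proteins, rose from 2.97 and 3.32 CPM to 17.2 and 18.9 CPM (2.49 ± 0.31, adjusted p = 0.0273). All 3 had HFSC levels at least as high as 6.63 CPM and progenitor levels no higher than 3.32 CPM. Npnt, which encodes nephronectin, was also higher in both mice (10.3 and 6.67 CPM against 20.4 and 15 CPM) and passed in the blocked fit (1.06 ± 0.29, blocked adjusted p = 0.00201). Tcaf2, which encodes a factor associated with a TRP channel, rose from 15.7 and 18.9 CPM to 38 and 39.8 CPM (1.17 ± 0.14, adjusted p = 0.0273).

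Secreted proteins made up the next group. Pxdn, a peroxidase that crosslinks collagen IV in basement membranes, rose from 30.6 and 41.2 CPM to 77.2 and 101 CPM (1.31 ± 0.17, adjusted p = 0.0338). Ptn, the heparin-binding growth factor pleiotrophin, rose from 8.87 and 9.39 CPM to 19.8 and 22.6 CPM (1.21 ± 0.15, adjusted p = 0.0273). Cp, the copper-carrying ferroxidase ceruloplasmin, rose from 8.17 and 11.1 CPM to 29.4 and 25.3 CPM (1.5 ± 0.17, adjusted p = 0.025). None of the 3 genes had an HFSC library at or below a progenitor library, which also held for 19.6% of all genes. Serpina3k, a serine protease inhibitor gene, had the largest fold of the 21, with 0.289 and 0.344 CPM in progenitors, from 7 and 8 counts, and 5.76 and 14.7 CPM in HFSCs (4.70 ± 0.55, adjusted p = 0.0273). It was the only one of the 21 that entered the comparison through its HFSC level, its mean in progenitors being under 10 counts. Serpina3k therefore had to be higher in HFSCs, and its values are a description.

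Serpina3k lies on chromosome 12 (GRCm38, chr12:104338486-104346144) in a cluster of near-identical serpin genes, and its annotated span falls within that of Serpina3m, so reads may be split among these genes and each is uncertain on its own. Serpina3m stood at 0.124 and 0.474 CPM in progenitors and 3.92 and 10.4 CPM in HFSCs (4.26 ± 0.67, adjusted p = 0.0669). Serpina3n, the most abundant of the cluster, stood at 9.58 and 16.4 CPM and at 91.4 and 260 CPM (3.75 ± 0.61, adjusted p = 0.0669). The HFSC level was higher in mouse 2 than in mouse 1 for all 3 genes, and no progenitor library reached it. Serpina3m, with 3 and 11 progenitor counts, also entered through its HFSC level, so its values are a description. Serpina3n passed in the blocked fit (blocked adjusted p = 3.25e-06).

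The last group works inside the cell. Trib2, a pseudokinase that steers proteins to ubiquitin ligases, rose from 3.26 and 2.11 CPM to 10.2 and 11 CPM (1.95 ± 0.24, adjusted p = 0.0276). Atoh8, a basic helix-loop-helix factor, rose from 1.16 and 1.29 CPM to 4.54 and 4.88 CPM (1.88 ± 0.25, adjusted p = 0.0338). Arhgef40, a guanine nucleotide exchange factor, rose from 2.93 and 3.75 CPM to 9.89 and 10.9 CPM (1.62 ± 0.20, adjusted p = 0.0273). For these low-level genes the separation rests on levels from 1.16 CPM, and no library of one cell type reached the range of the other. Both HFSC libraries also lay above both progenitor libraries in 19.6% of all genes. Sertad4, a SERTA domain gene, showed the smallest rise of the 16, from 40.7 and 42.5 CPM to 69.3 and 77.5 CPM (0.82 ± 0.11, adjusted p = 0.0338).

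The 5 genes that passed lower had progenitor levels from 1.81-fold (Tslp) to 2.89-fold (Ablim1) those of HFSCs. Ablim1, an actin-binding LIM protein, fell from 24.4 and 28.5 CPM in progenitors to 9.21 and 8.97 CPM in HFSCs (-1.53 ± 0.16, adjusted p = 0.0183). Tmprss4, a membrane serine protease, fell from 21.8 and 22.4 CPM to 9.64 and 9.47 CPM (-1.20 ± 0.15, adjusted p = 0.0295). For both genes the HFSC libraries of the 2 mice were close to each other and well below the progenitor libraries. Sprr2h, a small proline-rich protein of the cornified envelope, fell from 65.5 and 58 CPM to 29 and 30.4 CPM (-1.05 ± 0.14, adjusted p = 0.0359). Tuba8, an α-tubulin, fell from 56.3 and 59.6 CPM to 30.8 and 28.1 CPM (-0.97 ± 0.11, adjusted p = 0.025). Tslp, the epithelial cytokine that starts type 2 immune responses, was the most abundant of the 5 and fell from 386 and 369 CPM to 220 and 198 CPM (-0.85 ± 0.11, adjusted p = 0.029).

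**Figure D2:**
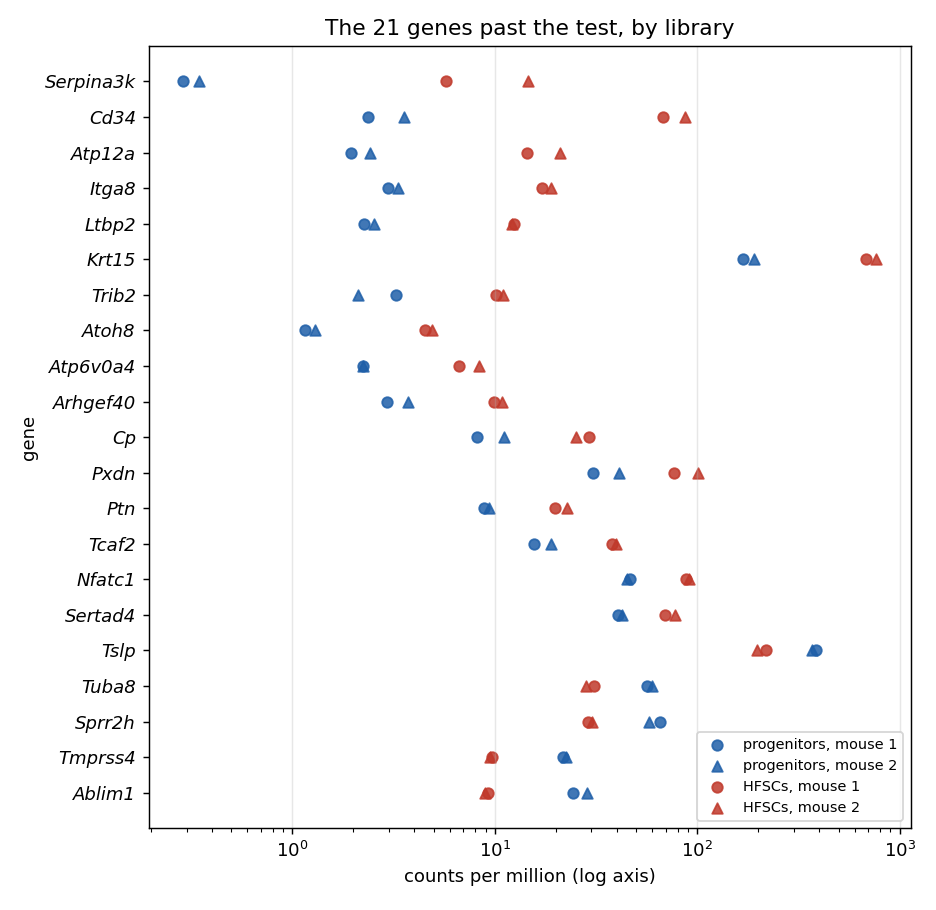
CPM on a log axis of the 21 genes that passed, 1 row per gene, in the untreated progenitors (blue) and HFSCs (red) of mouse 1 (circles) and mouse 2 (triangles). In all 21 rows the 2 blue and the 2 red points occupy separate ranges, with Cd34 and Serpina3k the farthest apart. The 21 were selected on these values, and 19.6% of all genes lay apart with HFSCs higher and 22.3% with HFSCs lower.

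Genes with a large difference in both mice that did not pass without the block were picked by size, among 138 genes higher and 84 lower by at least 2-fold in each mouse with a mean of at least 1 CPM. The 10 largest in the higher direction included Cd34 and Serpina3k and 3 genes of Wnt signalling. Lgr5, the R-spondin receptor that marks cycling follicle stem cells, stood at 0.0413 and 0.344 CPM in progenitors and 2.36 and 5.87 CPM in HFSCs (3.96 ± 0.89, adjusted p = 0.149, blocked adjusted p = 0.00066). Its paralog Lgr6, known from the isthmus above the bulge, stood at 0.206 and 0.387 CPM and at 2.46 and 6.66 CPM (3.63 ± 0.79, adjusted p = 0.136, blocked adjusted p = 0.000877). Lef1, a factor that carries the Wnt signal to DNA, stood at 0.371 and 0.258 CPM and at 3.30 and 5.76 CPM (3.54 ± 0.63, adjusted p = 0.0761, blocked adjusted p = 0.00175). The HFSC level was higher in mouse 2 than in mouse 1 for all 3, and the progenitor level was at most 0.387 CPM in every library. The progenitor counts of mouse 1 and mouse 2 were 1 and 8 for Lgr5, 5 and 9 for Lgr6 and 9 and 6 for Lef1. All 3 genes therefore entered the comparison through their HFSC level and had to differ, so their values are a description.

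Gfra1, the GDNF co-receptor, stood at 0.991 and 1.59 CPM in progenitors and 11.3 and 19.3 CPM in HFSCs (3.49 ± 0.57, adjusted p = 0.0669). Ttr, the carrier of thyroxine and retinol, stood at 2.19 and 3.96 CPM and at 17.8 and 36 CPM (3.10 ± 0.49, adjusted p = 0.0669). Ehd3, a membrane-shaping ATPase of recycling endosomes, stood at 0.248 and 0.646 CPM and at 3.98 and 5.07 CPM (3.14 ± 0.56, adjusted p = 0.0783). The groups were apart for all 3, as for 19.6% of all genes with HFSCs higher. All 3 passed in the blocked fit, the blocked adjusted p of Ttr being 6.95e-06.

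Of the 10 largest differences in the lower direction none passed without the block. Igfbp2, an insulin-like growth factor binding protein, stood at 14.8 and 27.1 CPM in progenitors and 2.15 and 6.32 CPM in HFSCs (-2.30 ± 0.49, adjusted p = 0.132). Tubb3, a β-tubulin best known from neurons, stood at 28 and 25.7 CPM and at 8.15 and 6.32 CPM (-1.88 ± 0.44, adjusted p = 0.161). Klk7, a protease of the stratum corneum that cuts corneodesmosomes, stood at 8.63 and 11.1 CPM and at 1.96 and 3.56 CPM (-1.82 ± 0.30, adjusted p = 0.0703). P2rx2, an ATP-gated channel, had the lowest log2 fold change of the 10, at 2.39 and 2.67 CPM in progenitors and 0.56 and 0.265 CPM in HFSCs (-2.39 ± 0.52, adjusted p = 0.14). The other 6, Upk3bl, Nccrp1, Teddm3, Tdh, Pla2g4f and Ripor2, had log2 fold changes from -2.10 to -1.86 at progenitor levels under 3 CPM, and all 10 passed in the blocked fit.

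Genes of late epidermal differentiation lay on the lower side in HFSCs. Of 30 listed, 23 were measured, with a median log2 fold change of -1.37 against -0.01 over all genes. None passed edgeR's test without the block. At an unadjusted p-value under 0.05, 21 were lower and 0 higher, against 4.69% and 5.73% of all genes. In the blocked fit 19 passed lower, against 2.29% of all genes. In 22 of 23 the HFSC libraries lay below the progenitor libraries, against 22.3% of all genes. The genes of the list summed to 1299 and 1324 CPM in progenitors and to 746 and 922 CPM in HFSCs. In sorted bulk populations, fewer differentiating cells and less RNA per cell cannot be told apart. Dsc1, a desmosomal cadherin of upper layers, stood at 16.1 and 14.8 CPM in progenitors and 5.01 and 5.76 CPM in HFSCs (-1.51 ± 0.28, adjusted p = 0.0792, blocked adjusted p = 0.000766). Alox12b, a lipoxygenase of the skin barrier, stood at 2.93 and 3.14 CPM and at 0.778 and 1.21 CPM (-1.55 ± 0.25, adjusted p = 0.0669). Sprr1b, a cornified envelope precursor, stood at 52.7 and 46.6 CPM and at 26.6 and 28.5 CPM (-0.85 ± 0.15, adjusted p = 0.0792). The suprabasal keratins Krt1 and Krt10, outside the naming rule, had log2 fold changes of -1.55 ± 0.37 and -1.58 ± 0.48. Lor, the gene of the cornified envelope protein loricrin, stood at 1.07 and 0.56 CPM in progenitors and 1.12 and 0.606 CPM in HFSCs (0.08 ± 0.45) and was the only member above 0.

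Promoter sequences are shown for this list because 22 of its 23 members lay on the same side of the progenitor libraries. RefSeq windows (GRCm38.p6) from 250 bases before to 50 bases after the start were found for 18 of the 23 genes and were searched on both strands. TATAAA, the core of the TATA box, occurred in 9 of 18 windows (50%), against 14.2% of 27025 windows and 6.72% of the windows of 9440 genes compared here. TGANTCA, a core of sites for the AP-1 family, also occurred in 9 of 18, against 7.93% of all windows and 4.95% of those of the compared genes. CTTTGA, a core of TCF and LEF sites, occurred in 4 of 18, against 16.2% and 11.5%. None of the 3 motifs occurred in the 15 windows found for the bulge list. In 8 of the 9 genes the TATAAA began 26 to 31 bases before the start, and in Sprr1a it began 43 bases before it. CTTTGA ends in the letters TGA that open TGANTCA, so these 2 motifs can share bases, and a match describes these letters only. In the lines that follow the capitals mark the motif and each line runs 5′ to 3′ on the gene's strand: TATAAA for Ivl (involucrin, chr3:92573748-92573775, minus strand), Krt10 (chr11:99389374-99389401, minus), Krtdap (chr7:30787864-30787891, plus), Sprr1b (chr3:92438793-92438820, minus) and the Sprr2h that passed (chr3:92385645-92385672, plus), then TGANTCA for Ivl (chr3:92573835-92573862, minus), Krtdap (chr7:30787813-30787840, plus) and Sprr2h (chr3:92385476-92385503, plus).
Ivl TATAAA: ggctagaacaaTATAAAgggccctagtt
Krt10 TATAAA: ccctctcagtaTATAAAggctcggcact
Krtdap TATAAA: ccccttgctaaTATAAAgggccatcagg
Sprr1b TATAAA: ctcattccttcTATAAAaagccagtgtg
Sprr2h TATAAA: gcagccagtctTATAAAaaggtgcttgg
Ivl TGANTCA: aagttatcagaTGACTCAgaaaggaagg
Krtdap TGANTCA: tgatccggggaTGAGTCActagggtggg
Sprr2h TGANTCA: gggatggtctcTGAGTCActgcacttta

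Gene families were also read as a whole. Over all genes 47.6% were above 0 and 52.4% below 0, and the blocked fit gave 4.29% higher and 2.29% lower. Families were formed from the letters of the symbol before its first digit, and the 4 with the lowest and the 4 with the highest median among 325 families of at least 6 members are given, a choice made after the values were seen. All 6 kallikreins (Klk, proteases of the upper epidermis) were below 0, with a median of -1.48 and 4 passing lower in the blocked fit. All 10 Sprr genes were below 0, with a median of -1.17, Sprr2h passed, and 6 passed in the blocked fit. Whether the reads of these related genes can be told apart was not tested, so they may not be separate measurements. Of 20 keratins 14 were below 0, with a median of -0.32, and the blocked fit gave 7 lower and 3 higher. Krt16 and Krt6b, keratins of the outer root sheath and of wounded epidermis, were among the 7 (-0.74 and -0.88), and Krt15, Krt75 and Krt90 were the 3. The 9 Ugt1a genes share exons at 1 locus, so their like values, from -0.69 to -0.63, are not separate measurements, and none passed.

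At the other end, all 7 Serpina genes were above 0 (median 1.59), with Serpina3k passing. Serpina3k and Serpina3m are part of this count and entered through their HFSC level. Reads may also be split among the genes of their cluster, so the members are not all separate measurements. Of 64 histone genes (symbols from Hist) 63 were above 0, with a median of 0.45, none passed without the block and 39 passed higher in the blocked fit. Many histone genes are near-identical copies whose reads cannot be told apart, and ribo-depleted libraries hold their non-polyadenylated transcripts. All 6 Gstm genes, glutathione transferases that also share sequence, were above 0 (median 0.84, 3 passing higher in the blocked fit). The 9 Adamts proteases split, with a median of 0.54 and 1 passing in each direction in the blocked fit.

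**Figure D3:**
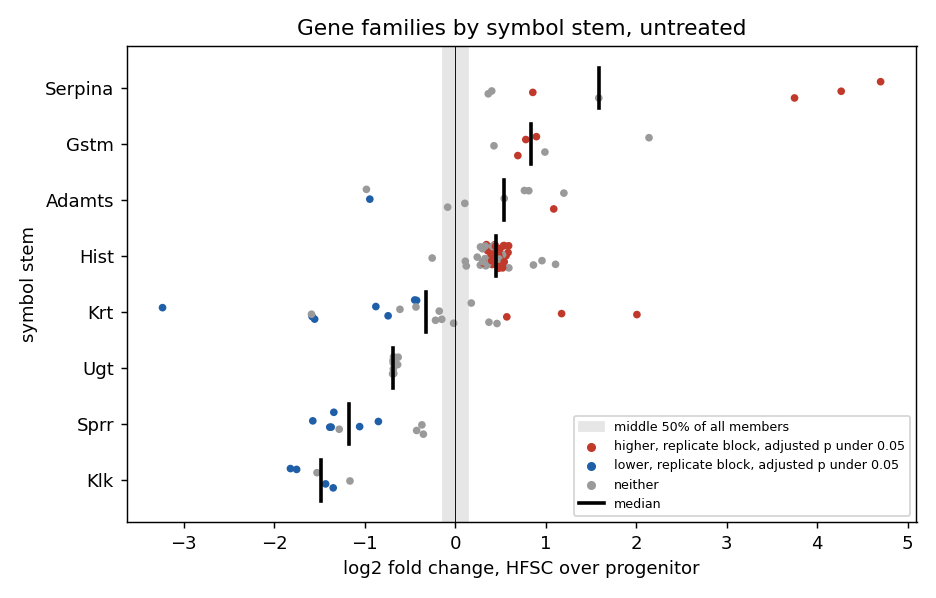
Log2 fold change of HFSC over progenitor for each member (points) of the 8 families named in the text, with the median as a black bar, members passing higher in the blocked fit in red and lower in blue, and the middle 50% of all genes shaded. Points of Klk and Sprr lie to the left of 0 and those of Serpina and Gstm to the right, and the Ugt1a points lie close together.

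The lists of factors stand beside 47.6% of all genes above 0, and 4.29% higher and 2.29% lower in the blocked fit. Of 33 factors of the follicle lineage 30 were above 0, with a median of 0.39. Nfatc1 passed, and 15 passed higher and none lower in the blocked fit. Nfatc1 is also part of the bulge list, and Lef1, part of these counts, entered through its HFSC level. Of 29 factors of the epidermal lineage 20 were below 0, with a median of -0.15, none passed without the block, and 3 passed higher and 5 lower in the blocked fit. Gli2, the main activator of the Hedgehog response, stood at 19.2 and 19.6 CPM in progenitors and 33.3 and 39.2 CPM in HFSCs (0.90 ± 0.16, adjusted p = 0.0761, blocked adjusted p = 0.00169). Foxp1, a forkhead factor linked to stem cell quiescence, stood at 54 and 52.4 CPM and at 78.6 and 83.8 CPM (0.61 ± 0.13, adjusted p = 0.129, blocked adjusted p = 0.00907). Grhl3 and Zfp750, which drive late differentiation and fall outside the naming rule, had log2 fold changes of -1.17 and -1.18, and both passed lower in the blocked fit.

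Of 43 Wnt pathway genes 28 were above 0 with a median of 0.22, against 47.6% of all genes above 0. None passed without the block. In the blocked fit 15 passed higher and 4 lower, against 4.29% and 2.29% of all genes. Among 17 receptors the median was 0.28, with 8 higher and 1 lower in the blocked fit. Fzd10 was the receptor that passed lower, from 12 and 11.6 CPM to 5.32 and 6.44 CPM (-1.0 ± 0.18, adjusted p = 0.0792, blocked adjusted p = 0.00721). All 6 factors and targets were above 0 (median 0.75), and the T cell factor Tcf7 stood at 3.43 and 3.01 CPM in progenitors and 6.88 and 6.78 CPM in HFSCs (1.07 ± 0.19, adjusted p = 0.0792, blocked adjusted p = 0.00797). Axin2, the usual readout of the pathway, was at 0.22 and passed neither fit. Of 13 ligands 9 were below 0 (median -0.27), and those that passed lower in the blocked fit were Wnt7a, Wnt7b and Wnt4, at -1.71, -1.39 and -1.06. Of the secreted inhibitors, Dkk3, Sfrp1 and Wif1 passed higher in the blocked fit (1.66, 1.43 and 2.26). Lgr5, Lgr6, Lef1 and Wif1, each with a progenitor mean under 10 counts, are part of these counts and entered through their HFSC level.

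Of 39 TGF-β and BMP genes (median 0.09) 10 passed higher and 1 lower in the blocked fit, against 4.29% and 2.29% of all genes. Ltbp2 also passed without the block. Of the 12 modulators 6 passed higher in the blocked fit (median 0.56). Nog, the BMP antagonist noggin, stood at 0.826 and 0.99 CPM in progenitors and 2.08 and 2.65 CPM in HFSCs (1.31 ± 0.34, adjusted p = 0.221, blocked adjusted p = 0.0387). Sostdc1, which antagonizes BMP and Wnt, stood at 180 and 175 CPM and at 260 and 243 CPM (0.50 ± 0.14, adjusted p = 0.237, blocked adjusted p = 0.00386). Id4, an inhibitor of helix-loop-helix factors and a target of BMP signals, stood at 1.82 and 1.33 CPM and at 3.33 and 6.10 CPM (1.53 ± 0.36, adjusted p = 0.17, blocked adjusted p = 0.0211). Receptors had a median of -0.02, and none of 10 passed in either fit.

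For all lists and families here, counts of the blocked fit stand beside 4.29% higher and 2.29% lower over all genes. Against these shares, counts of 1 to 3 in lists of the sizes that follow say little. Signs stand beside 47.6% of all genes above 0 and 52.4% below 0. Of 12 Hedgehog genes 10 were above 0 (median 0.25) and 3 passed higher in the blocked fit, Gli2 and the co-receptors Boc and Gas1. The groups overlapped for Gas1, at 80.3 and 123 CPM in progenitors and 117 and 185 CPM in HFSCs (adjusted p = 0.644). Ptch1 (-0.30) and Gli1 (0.23), the targets that read out the pathway, passed neither fit. Of 17 Notch genes (median -0.04) the blocked fit gave 1 in each direction. Notch3, a receptor, stood at 16.6 and 17.6 CPM in progenitors and 6.94 and 7.31 CPM in HFSCs (-1.25 ± 0.23, adjusted p = 0.0836, blocked adjusted p = 0.00229). Lfng, the glycosyltransferase that tunes Notch receptors, stood at 39.5 and 52.7 CPM and at 59.9 and 84.4 CPM (0.64 ± 0.21, adjusted p = 0.325, blocked adjusted p = 0.00261). Of 47 growth factor and receptor tyrosine kinase genes (median -0.08) 7 passed higher and 3 lower in the blocked fit, Igfbp2 among the lower. Of 30 Hippo genes (median -0.03) 2 passed higher and 3 lower, and a count of 2 of 30 is near the share over all genes. F3, the coagulation trigger tissue factor, belongs to that list as a target and stood at 50.6 and 43.2 CPM in progenitors and at 26.7 and 18.8 CPM in HFSCs (-1.04 ± 0.21, adjusted p = 0.104, blocked adjusted p = 0.000673).

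Of 18 collagen chains (median 0.21) 5 passed higher and none lower in the blocked fit. Without the mouse 2 progenitor library that median was 0.83. Col12a1, a chain that decorates collagen fibrils, was abundant, at 661 and 718 CPM in progenitors and 1050 and 1041 CPM in HFSCs (0.60 ± 0.10, adjusted p = 0.0669, blocked adjusted p = 0.00125). Col4a4, a basement membrane chain, stood at 1.24 and 0.689 CPM and at 4.82 and 3.90 CPM (2.09 ± 0.38, adjusted p = 0.0792, blocked adjusted p = 0.00396). Among 17 matrix glycoproteins (median 0.18, 4 higher and 1 lower in the blocked fit), periostin, Postn, stood at 102 and 128 CPM and at 242 and 369 CPM (1.41 ± 0.22, adjusted p = 0.0662, blocked adjusted p = 4.32e-05). Among 16 laminin and basement membrane genes (median 0.05, 3 higher and 1 lower), Lama4, a laminin α chain, stood at 14.6 and 13.3 CPM in progenitors and 25.3 and 23.7 CPM in HFSCs (0.81 ± 0.26, adjusted p = 0.315, blocked adjusted p = 0.00731).

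Of 15 integrin subunits (median -0.18) Itga8 passed, and the blocked fit gave 2 in each direction. Without the mouse 2 HFSC library that median was 0.04. Itga5, the fibronectin receptor subunit, stood at 48.1 and 46.3 CPM in progenitors and 31.2 and 27.3 CPM in HFSCs (-0.69 ± 0.12, adjusted p = 0.0774, blocked adjusted p = 0.00802). Of 40 cell adhesion genes 34 were below 0 (median -0.24), none passed without the block, and 1 passed higher and 9 lower in the blocked fit. Cldn4, a tight junction claudin, stood at 10.7 and 8.70 CPM and at 3.45 and 3.48 CPM (-1.47 ± 0.23, adjusted p = 0.0669, blocked adjusted p = 0.000995). Nectin4, an adherens junction protein, stood at 14.6 and 10.8 CPM and at 4.32 and 3.37 CPM (-1.70 ± 0.30, adjusted p = 0.0761, blocked adjusted p = 0.000198). Of 29 matrix proteases and inhibitors (median 0.11) 4 passed in each direction in the blocked fit. Adamts1, a proteoglycan-cutting protease, stood at 376 and 345 CPM and at 210 and 166 CPM (-0.94 ± 0.15, adjusted p = 0.0669, blocked adjusted p = 0.00393). Plaur, the urokinase receptor, stood at 8.05 and 9.30 CPM and at 3.70 and 4.05 CPM (-1.15 ± 0.19, adjusted p = 0.073, blocked adjusted p = 0.00631).

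**Figure D4:**
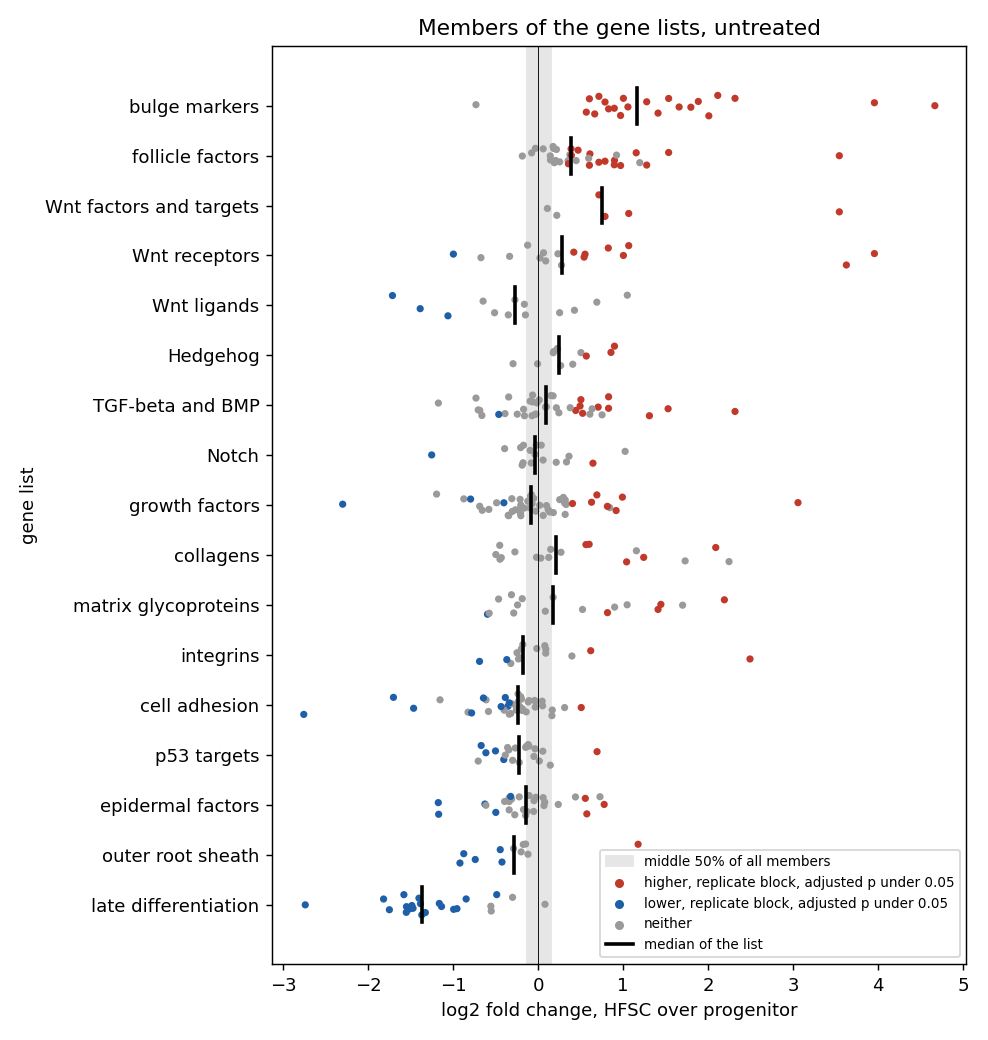
Log2 fold change of HFSC over progenitor for each member (points) of 17 gene lists or roles, 1 row each, with the median as a black bar, members passing higher in the blocked fit in red and lower in blue, and the middle 50% of all genes shaded. Bulge markers (median 1.17) and late differentiation genes (median -1.37) stand at opposite ends, and most signalling lists straddle 0.

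Of 40 actin cytoskeleton genes (median -0.07) Ablim1 passed lower, and the blocked fit gave 4 higher and 2 lower. The tensins, which tie integrins to actin, were on the higher side. Tns1 stood at 34.7 and 52.1 CPM in progenitors and 99.1 and 116 CPM in HFSCs (1.31 ± 0.21, adjusted p = 0.0669, blocked adjusted p = 0.000166). Tns2 and Tns3 had log2 fold changes of 1.02 ± 0.17 and 0.51 ± 0.12 and passed in the blocked fit. Of 16 tubulin genes (median -0.04) Tuba8 passed lower, and 3 passed lower in the blocked fit with none higher. Of 48 cytokine genes (median -0.05) Tslp passed lower, and the blocked fit gave 5 in each direction. Il33, the other alarmin of the type 2 response, stood at 9.95 and 7.49 CPM and at 2.89 and 2.35 CPM (-1.70 ± 0.37, adjusted p = 0.141, blocked adjusted p = 0.00112). Lifr, the leukemia inhibitory factor receptor, stood at 17.7 and 25 CPM and at 37.1 and 42.8 CPM (0.90 ± 0.20, adjusted p = 0.15, blocked adjusted p = 0.00134).

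In the axon guidance, nuclear receptor, interferon, G1, p53 and hypoxia lists no member passed edgeR's test without the block. Axon guidance genes (43, median 0.12) had 6 higher and 2 lower in the blocked fit, with Epha4, an ephrin receptor, lower (-0.59 ± 0.13) and its relative Ephb1 higher (2.65 ± 0.68). Ephb1 had 3 and 5 progenitor counts and entered through its HFSC level. Nuclear receptors (23, median 0.13) had 2 higher, among them the vitamin D receptor Vdr (0.67 ± 0.29, adjusted p = 0.506). For Vdr the groups overlapped, at 70.9 and 103 CPM in progenitors and 101 and 174 CPM in HFSCs. Interferon response genes (33, median 0.10) had 3 higher, and without the mouse 1 progenitor library that median was 0.50. G1 regulators (24, median -0.04) had 3 higher. The cyclin-dependent kinase inhibitor Cdkn1b stood at 46 and 43.3 CPM in progenitors and 62.9 and 61.8 CPM in HFSCs (0.48 ± 0.12, adjusted p = 0.187, blocked adjusted p = 0.00776). The cyclin Ccnd1 stood at 118 and 119 CPM and at 85.2 and 93 CPM (-0.41 ± 0.12), passing neither fit. Of 21 p53 targets 17 were below 0 (median -0.22), with 1 higher and 4 lower in the blocked fit, and the polo-like kinase Plk3 was the lowest of those named (-0.67 ± 0.12). Hypoxia genes (16, median -0.17) had none passing in either fit and none at an unadjusted p-value under 0.05.

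Outer root sheath genes (11, median -0.29) had 1 higher and 5 lower in the blocked fit, and without the mouse 2 HFSC library that median was -0.49. Of the infundibulum and isthmus genes (6, median -0.35) Lgr6, which entered through its HFSC level, passed higher and 2 passed lower in the blocked fit. Among those 2, Plet1 stood at 31.3 and 30.2 CPM in progenitors and 15.1 and 13.9 CPM in HFSCs (-1.08 ± 0.18, adjusted p = 0.0703). Hair shaft and inner root sheath genes summed to 40.1 and 27.3 CPM in progenitors and 32.1 and 28.7 CPM in HFSCs. Of the 6 measured, 5 were below 0 (median -0.55). In the blocked fit 2 passed lower, Krt72 (-3.23 ± 1.04) and Foxn1 (-1.67 ± 0.65), and none higher. Krt72 had 2 and 0 HFSC counts and entered through its progenitor level. The hair keratins Krt31, Krt34, Krt35, Krt81 and Krt86 had no count in any untreated library. Sebaceous genes summed to 286 and 330 CPM in progenitors and 252 and 280 CPM in HFSCs. Melanocyte genes summed to 9.04 and 10.1 CPM in progenitors and 12 and 13.8 CPM in HFSCs, with Tyr and Sox10 at 0.

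Leukocyte genes summed to 10.9 and 18.8 CPM in progenitors and 11.7 and 18.6 CPM in HFSCs, with Cd207, Cd3g, Tyrobp and Csf1r at 0. Fibroblast and dermal papilla genes summed to 1.40 and 23.6 CPM in progenitors and 2.49 and 9.43 CPM in HFSCs, so they moved with the donor, with Lum and Corin at 0. Endothelial and perivascular genes summed to 53 and 92.5 CPM in progenitors and 38.1 and 77.5 CPM in HFSCs, with Cdh5 and Cldn5 at 0. Merkel and neural genes summed to 17.7 and 14 CPM and to 12.4 and 11.7 CPM, with Krt20 and Atoh1 at 0. The 13 mitochondrially encoded genes summed to 52950 and 70270 CPM in progenitors and 44680 and 63240 CPM in HFSCs (median log2 fold change -0.25, 3 lower in the blocked fit). Without the mouse 1 HFSC library that median was 0.03, without the mouse 2 HFSC library it was -0.58, and in N1-AcSpd cells it was 0.25. The 25 early response genes summed to 2888 and 2849 CPM and to 2707 and 2762 CPM. The part of these genes in the differences given above was not tested.

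The 21 genes were then read in the N1-AcSpd libraries, which the untreated contrast does not use except to estimate the spread. All 21 kept their sign, and 19 passed there, against 0.859% of all genes compared. Both contrasts share 1 estimate of the spread per gene, the 2 donors and the sort on CD34. Genes picked for a small untreated p-value thus tend to have a small spread here too. The 19, Cd34 among them, are therefore not an independent replication. Krt15 had a log2 fold change of 1.71 and Cd34 one of 4.33. The 2 that did not pass were Serpina3k (2.52, adjusted p = 0.096) and Atp6v0a4 (0.75, adjusted p = 0.252). Whether the cell type difference itself differed between treated and untreated cells was read by edgeR's interaction test. No gene passed it, against 76 at an unadjusted p-value under 0.05 (0.622%), and 0 passed by DESeq2. With n = 2 per group such differences can be missed. Among the 21 the unadjusted p-value was under 0.05 for Atp6v0a4 (0.0183), Serpina3k (0.0299) and Ptn (0.0385). Serpina3k entered through its untreated HFSC level, so its value is a description.

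**Figure D5:**
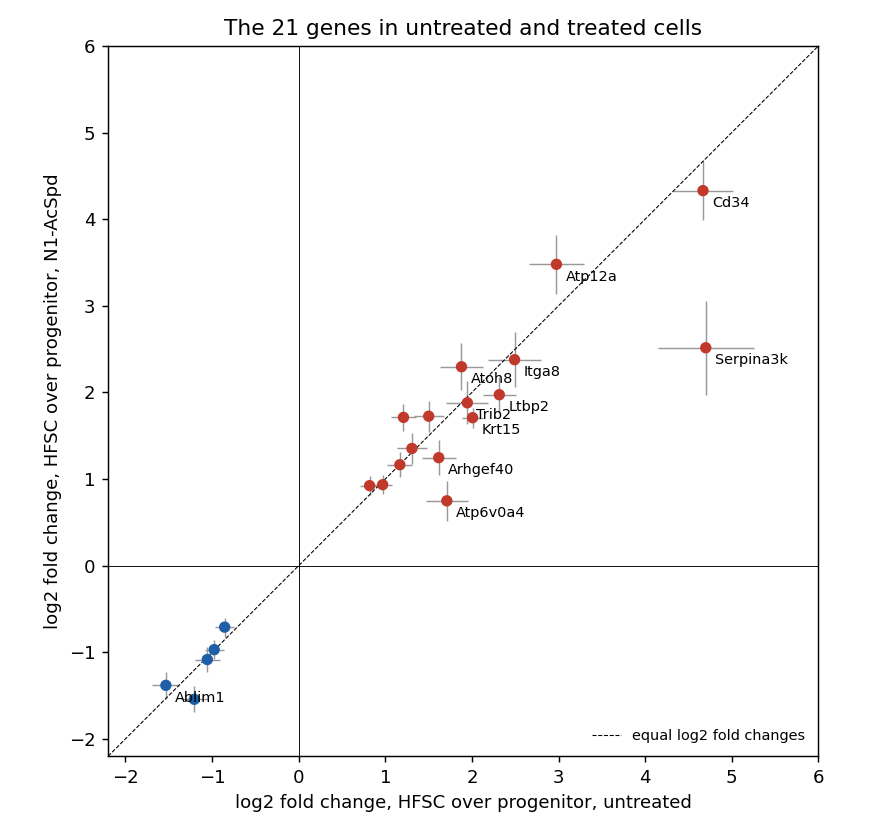
Log2 fold change of HFSC over progenitor in untreated cells (horizontal axis) against N1-AcSpd-treated cells (vertical axis) for the 21 genes that passed, with SE bars and a dashed line of equality. The 16 higher genes (red) and 5 lower genes (blue) keep their sign, and Serpina3k (4.70 and 2.52) and Atp6v0a4 (1.71 and 0.75) lie below the line. Serpina3k entered the comparison through its untreated HFSC level.

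Ribosome footprints from the same lysates were sparse, with 34467 to 267921 footprints per untreated library. Of the 21 genes, 15 could be tested, 14 had the direction of their RNA, and Krt15 passed. For Krt15 the progenitors of mouse 1 and mouse 2 gave 9 and 152 footprints and the HFSCs 116 and 284 (2.19 ± 0.39, adjusted p = 0.000167), and without the mouse 1 progenitor library it did not pass. Among all 8430 genes tested there, 2 passed (0.0237%), against 224 at an unadjusted p-value under 0.05 (2.66%), and the other was Serpina3n, whose progenitor libraries held 1 and 6 footprints against 3 and 59 for the HFSCs (2.78 ± 0.63, adjusted p = 0.0469). Of the 21 genes, 12 had under 20 footprints summed over the 4 libraries.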

How the data were processed

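The authors deposited RNA-seq and footprint counts per transcript, as whole reads with no scaling (64026 transcripts). The methods describe, for footprint reads, removal of rRNA and tRNA reads with Bowtie and alignment to mm10 with STAR. The submitters' processing notes list Bowtie 1.2.3, STAR 2.7.3a, featureCounts and GRCm38.p5. How RNA-seq reads were treated, and the strand setting, are not given in the sources used here. From the table of the authors' comparison only the gene name column was used. Its counts, FPKM, efficiencies, fold changes and p-values were not.

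Each gene symbol was represented by the transcript richest in footprints, summed over 8 libraries, which also had the most RNA-seq counts for 95.6% of the genes compared. The 14205 genes averaging 1 count or more were fitted over all 8 RNA-seq libraries with edgeR 4.0.16 in R 4.3.3 (TMM factors, quasi-likelihood test, two-sided, prior count 2, Benjamini-Hochberg adjustment over all genes fitted). Genes compared had a mean of at least 10 counts. The 16 genes just inside that minimum, at 10 counts, had log2 fold changes from -0.99 to 2.05, and the 16 just outside, at 9.75 counts, from -1.08 to 1.71. Of the genes compared, 186 had a mean under 10 counts in progenitors and 63 in HFSCs.

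Each replicate number carries 1 mouse identity in the labels of all its libraries, so it pairs the samples (the donor correlations are given in the report). With 2 donors, p-values measure only the spread between these cultures. The genes, gene lists and tests were chosen with earlier results of these data known. Named were the 4 markers and Itga6, every gene that passed with the same direction in both mice, the 10 highest and 10 lowest log2 fold changes among genes at least 2-fold different in both mice with a mean of at least 1 CPM, the genes that passed in each list or otherwise up to 4 with the smallest p-value, and the 5 highest levels in each cell type. Other genes, and the families, were chosen after their values were seen. Alternatives were DESeq2 1.42.0, RLE factors, other filters, transcripts and prior counts, other sets of libraries, the donor block and left-out libraries. The fit was tested on simulated data. Some genes that the naming rule selects are not reported here.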

Additional observations from a re-analysis of the deposited data

How the results depend on the processing

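Against 21 genes past the test, the count was 268 with DESeq2, 168 with a filter of at least 1 count, 10 on the 4 untreated libraries alone and 1275 at an unadjusted p-value under 0.05. All 21 were among the 268 and the 168, and 7 were among the 10. With counts summed over the transcripts of a gene 15 passed, 14 of them among the 21. Because the replicate number pairs the samples by donor, the donor block was also fitted. With it 805 genes passed on 6 libraries, 2732 on the 4 untreated libraries and 3 on all 8 libraries as numbered. On all 8 with the numbers of the N1-AcSpd HFSCs exchanged, 748 passed. That exchange was chosen after seeing the data, as were the 6 libraries of the block and leaving out the N1-AcSpd HFSCs without it (19). The blocked fit on 4 libraries has almost no libraries to spare for the spread, so its 2732 is not comparable with the other counts. All 21 kept their direction under every alternative, but these fits reuse the libraries in which the 21 were selected. Leaving out libraries gave 0 to 7 genes. The cause was not tested. Of the 21 genes, 19 passed in N1-AcSpd cells, and 7 to 19 did so with libraries left out. The interaction count was 0 throughout, and the footprint count of 1 ranged from 0 to 1.

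Some named genes at low or donor-dependent levels changed sign when libraries were left out. The log2 fold changes then ranged from -1.0 to 0.12 for Acta2, -1.96 to 0.18 for Adm, -0.29 to 2.55 for Cd74, -0.45 to 0.028 for Col1a1, -0.72 to 2.56 for Col1a2, -0.38 to 0.26 for H2-Ab1, -0.58 to 0.31 for Krt18, -0.28 to 0.012 for P4ha2, -1.42 to 0.86 for Pdgfra, -0.27 to 0.98 for Tagln, -3.75 to 2.83 for Vim, -0.41 to 0.084 for mt-Co1 and -0.58 to 0.033 for mt-Cytb. List medians also moved: outer root sheath to -0.49 without the mouse 2 HFSCs, interferon response to 0.50 without the mouse 1 progenitors, and mitochondrially encoded genes to 0.03 or -0.58 without the mouse 1 or mouse 2 HFSCs.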
